A study of Mus musculus with 12 samples.

Results

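Mouse induced pluripotent stem (iPS) cells made with Oct4 and Tet1 were compared with fibroblasts on Affymetrix expression arrays, 3 arrays per group and 6 of the 12 arrays of the series. The arrays were chosen by title, those of the iPS cell line and those of the fibroblast cell line. The fibroblasts were at passage 3, with no treatment labelled. Their strain is labelled OG2-GFP/Rosa26-M2rtTA on array 1, OG2-GFP/Rosa26-M3rtTA on array 2 and OG2-GFP/Rosa26-M4rtTA on array 3. The iPS cells were 1 line, named OT#b, at passage 10, with the strain label OG2-GFP/Rosa26-M2rtTA on all 3 arrays, and were grown on mitomycin C treated mouse embryonic fibroblasts, a feeder layer that no longer divides, in ES medium with LIF. Both groups therefore carry the Rosa26 rtTA transgene, the activator that doxycycline controls, and the OG2-GFP reporter. Other groups served as reference levels. R1 ES cells (strain 129, passage 20, 3 arrays) grew on the same kind of feeders in the same medium. Day-1 cells (3 arrays, OG2-GFP/Rosa26-M2rtTA) were passage 3 fibroblasts of mice made from such iPS cells, kept for 1 day in ES medium with doxycycline. A treatment is labelled for day-1 cells alone, so none is labelled for the iPS or ES cells. Whether the arrays of a group hold RNA of separate cultures is not stated, so a p-value reflects the spread among these arrays alone, which may be technical, and the iPS arrays stand for 1 line.

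Pluripotent stem cells stay unspecialised through a network of transcription factors around Oct4 (encoded by Pou5f1), Sox2 and Nanog, and in mouse they depend on LIF acting through STAT3. They are epithelial, divide fast with a short gap before DNA replication, and hold large parts of the genome in an open or Polycomb-marked state. Fibroblasts are mesenchymal cells that secrete and remodel collagen matrix, pull on it through actin stress fibres, and answer infection and injury with cytokines. Tet1 oxidises methylated cytosine, a step towards removal of the methyl group.

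The value table held 10360 probe sets, of which 9542 carried 1 gene symbol and gave 9539 genes. Values are levels on a log2 scale, so a difference of 1 is 2-fold, and the 3 arrays of a group are given in the order 1, 2, 3. The table has no detection calls, so how near a low value lies to background is unknown, and a difference from a low value may be understated. Each probe set varied by at least 0.51 between its lowest and highest array over the 12, so genes with flat profiles were not analysed here and shares of genes refer to varying genes. The median gene lay at 8.27 to 8.32 on the fibroblast arrays and at 7.99 to 8.08 on the iPS arrays. Arrays of a group correlated across genes with r of 0.991 to 0.994 in fibroblasts and 0.994 in iPS cells, and fibroblast with iPS arrays with r of 0.603 to 0.629. In interferon and inflammatory genes the fibroblast arrays stood apart from all other arrays, so those results are given against day-1 cells too.

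The labelled cell types were checked against marker genes. All 12 measured pluripotent markers were called higher in iPS cells (median difference 5.67). Of 14 fibroblast markers, 9 were called lower in iPS cells, among them Thy1 (-3.33 ± 0.13, SE), Twist2 (-5.02 ± 0.10) and S100a4 (-4.59 ± 0.16), and 5 were not called, namely Col1a1, Col1a2, Col3a1, Fap and Vim. The mean level of the 14 fibroblast markers was 11.12, 11.30 and 11.30 on the fibroblast arrays, 8.52, 8.47 and 8.59 on the iPS arrays and 7.89, 8.13 and 7.85 on the ES arrays, so the iPS arrays stood between fibroblasts and ES cells. Of 11 macrophage markers, 6 were called lower in iPS cells, 1 was higher (Laptm5, a lysosomal membrane protein of blood cells, 2.61 ± 0.12) and 4 were not called. The mean level of the 11 was 7.21 to 7.48 in fibroblasts, 7.1 to 7.24 in day-1 cells and 6.14 to 6.18 in iPS cells. The median difference of the 11 was -1.09. Lyz2, a lysozyme of macrophages, had the largest fall of the 11. It lay at 10.01, 10.33 and 10.37 in fibroblasts and at 5.96, 5.71 and 5.27 in iPS cells. The macrophage part in the immune genes that were lower in iPS cells was not tested. Of 2 endothelial markers 1 was higher (Pecam1, also a gene of ES cells, 3.96 ± 0.15), and all 5 epithelial markers were higher. Muscle markers had 1 of 2 higher (Des), adipocyte markers 2 of 3 lower, neural and Schwann cell markers 1 of 3 lower, and trophoblast and primitive endoderm markers 2 of 5 higher and 2 lower. In these bulk samples fewer cells of a type and less RNA per cell cannot be told apart.

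A gene was called when its adjusted p (limma, Benjamini-Hochberg over the 9539 genes) was under 0.05 and its difference at least 2-fold. By this rule 4897 genes (51.3%) differed: 2075 (21.8%) were higher and 2822 (29.6%) lower in iPS cells, and these shares are the background for every gene group. The median difference over all genes was -0.35 and the median SE 0.09. Arrays of the 2 groups did not overlap for 8966 genes (94%), so a lack of overlap alone is common. The direction split depends on scaling: 42.4% of calls were higher as deposited, 55.9% once arrays were centred on a common median, which moved the median difference to -0.10, and 52.0% after quantile normalization. Differences of at least 16-fold were reached by 64 higher and 88 lower genes, and of at least 64-fold by 10 higher and 6 lower genes. A further 3501 genes (36.7%) had a 95% interval that lay wholly within 2-fold. Against ES cells 658 genes (6.90%) differed. Of these, 424 genes (4.44%) were higher in iPS cells and 234 (2.45%) lower.

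**Figure D1:**
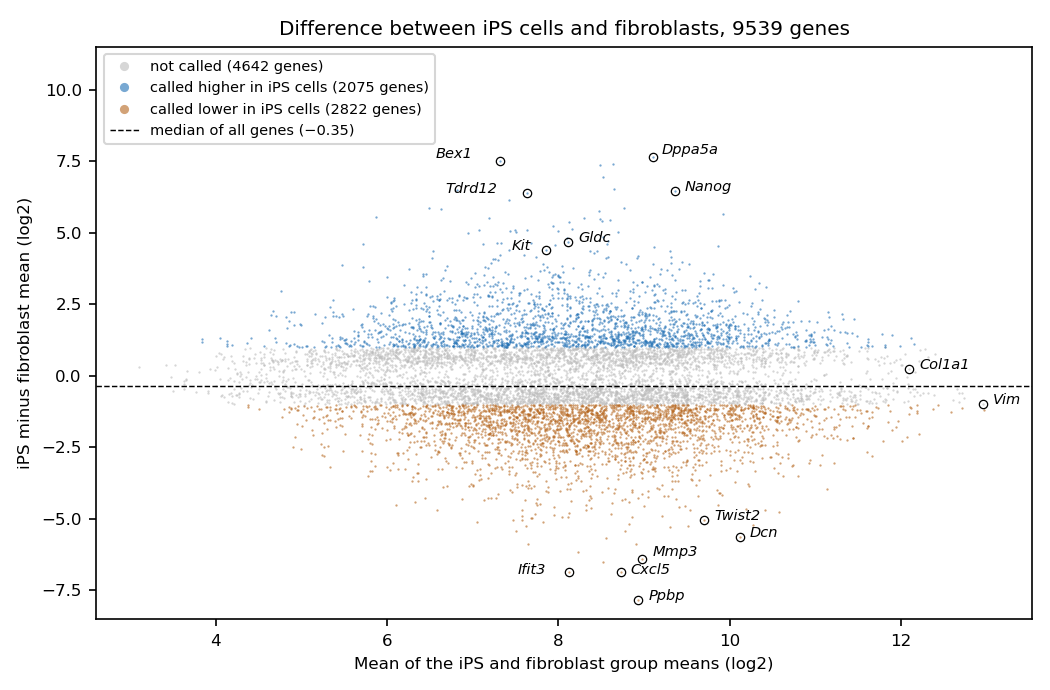
Difference between the iPS and the fibroblast group mean (vertical axis, log2) against the mean of both group means (horizontal axis, log2), 1 point per gene, 3 arrays per group. Blue points are the 2075 genes called higher and brown points the 2822 called lower, grey points are not called, and the dashed line is the median of -0.35; Dppa5a at the top and Ppbp at the bottom are the extremes, while Col1a1 lies near 0.

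Most of the genes at the upper end belong to the pluripotency network. Dppa5a, an RNA-binding protein of early embryo cells, lay at 4.81, 5.93 and 5.05 in fibroblasts and 12.94, 12.96 and 12.91 in iPS cells, a difference of 7.67 ± 0.33 (SE, adjusted p = 9.5e-11). Tdgf1 (Cripto, a co-receptor for Nodal) rose by 7.41 ± 0.08, Nr0b1 (Dax1, a nuclear receptor that binds Oct4) by 7.38 ± 0.10 and Fbxo15, an F-box gene driven by Oct4 and Sox2, by 6.16 ± 0.12. Every iPS array stood far above every fibroblast array for these genes. Bex1, a small X-linked adaptor gene, rose as steeply, from 3.60, 3.47 and 3.61 to 11.05, 11.07 and 11.12. Tfcp2l1, a factor of the naive state, rose by 5.77 ± 0.13, and Dppa4, a chromatin-binding protein of pluripotent cells, by 5.82 ± 0.13.

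Of the 34 measured members of the network, 33 were higher and 1 was lower, with a median difference of 4.14 against -0.35 over all genes. The pair of factors used for induction was among them. Pou5f1 lay at 4.96, 5.24 and 4.91 in fibroblasts and at 12.01, 12.04 and 11.96 in iPS cells. Tet1 lay at 6.59, 6.57 and 6.87 and at 10.27, 10.17 and 10.33. Both were far apart between the groups on every array, and the array cannot tell transcripts of the transgenes from those of the native genes. Tet1 stayed below the ES level by -1.11 ± 0.09 (iPS minus ES, adjusted p = 5e-07), and Pou5f1 differed from ES cells by -0.36 ± 0.08. Sox2, which was not supplied, lay at 4.94, 5.89 and 5.36 in fibroblasts and 11.95, 11.93 and 11.85 in iPS cells, and Nanog at 6.13, 5.99 and 6.25 and 12.56, 12.56 and 12.65. Neither was called against ES cells (Sox2 -0.40 ± 0.17, Nanog 0.34 ± 0.10). Of the other classical reprogramming factors, Klf4 was already at 9.06, 9.07 and 8.81 in fibroblasts and reached 10.12, 10.26 and 10.10. Myc was the exception of the list. It fell from 10.44, 10.12 and 10.01 to 8.71, 8.59 and 8.75 and was also lower than in ES cells by -1.26 ± 0.13 (adjusted p = 3.8e-06). Zfp42 (Rex1, a marker of naive cells) rose by 4.14 ± 0.16 and yet stood at 8.42, 8.82 and 8.56 in iPS against 11.10, 11.57 and 11.46 in ES cells, the arrays not overlapping (iPS minus ES -2.77 ± 0.16).

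The 250 bases before the start site of Zfp42 hold the octamer ATGCAAAT that Oct4 binds, which was found on either strand in 2 of 22 pluripotency genes with a promoter entry (Zfp42 and Zfp296), in 1.41% of the tested genes and in 1.61% of all 27025 windows of that length. Promoter sequences are from RefSeq, build GRCm38.p6, and were matched for 7533 of the 9539 genes. The stretch is shown 5′ to 3′ on the strand of the gene, with the octamer, here in reverse complement, in capitals.
Zfp42 chr8:43307160-43307229 (minus strand): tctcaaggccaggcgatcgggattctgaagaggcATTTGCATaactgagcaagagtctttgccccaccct
The motif starts 186 bases before the start site. A match is a description of the letters and shows no binding.

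Primed and early lineage genes, which mark cells that leave the naive state, were measured for 14 members. Of these 11 were higher and 1, Gata6, lower (-1.16 ± 0.11, not called once arrays were rescaled). Their median level was 6.09 in fibroblasts, 8.09 in iPS cells and 8.04 in ES cells, so ES cells shared the level of iPS cells. In iPS cells 3 members were called higher and 2 lower than in ES cells. The Nodal antagonist Lefty2 rose by 4.99 ± 0.23 and the zinc finger factors Zic5 and Zic2 by 3.46 ± 0.12 and 2.74 ± 0.13. Zic5 was below its ES level by -1.01 ± 0.12, and by -0.99, less than 2-fold, after quantile normalization. Sox1 and Gata4, factors of neural and of endodermal and heart precursors, were not called (0.90 and 0.38), though Sox1 was called higher once arrays were rescaled. Of 13 neural genes 6 were higher, led by Stmn2, a microtubule regulator (3.90 ± 0.15), and the neurofilament gene Nefl (2.29 ± 0.14). The adhesion gene Ncam1 (-2.62 ± 0.08) and the lipid carrier Fabp7 (-1.44 ± 0.13) were the 2 lower ones. The mean level of the 13 was 6.70 to 6.97 in fibroblasts, 7.86 to 7.91 in day-1 cells and 7.6 to 7.67 in iPS cells. Against day-1 cells 3 of the 13 were higher and 3 lower in iPS cells, beside 17.6% and 26.6% over all genes.

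In most of the signalling lists some genes were higher and others lower. In the TGF-beta, Nodal and activin list 5 of 25 members were higher and 15 lower. Among the higher ones, Nodal itself went from 6.22, 6.25 and 5.87 to 10.05, 9.84 and 10.05, and Lefty2 from 4.31, 4.49 and 4.54 to 9.57, 9.46 and 9.27, both also above ES cells (1.09 ± 0.11 and 1.81 ± 0.23). With Tdgf1, Lefty1 (1.62 ± 0.28) and the activin receptor Acvr2b (1.30 ± 0.11), they completed the 5. The lower ones included the receptors Tgfbr3 (-4.22 ± 0.07) and Tgfbr2 (-2.78 ± 0.09), the latent binding protein Ltbp2 (-3.13 ± 0.12) and the activin subunit Inhba (-2.73 ± 0.32). Among 19 BMP genes 2 were higher, the ligand Bmp7 (1.25 ± 0.09) and the target Id4 (1.21 ± 0.11). The 6 lower ones were led by the antagonist Grem1 (-3.83 ± 0.11) and the receptor Bmpr2 (-2.98 ± 0.11), and 11 were not called. The lower share of 31.6% was close to the 29.6% over all genes, and the higher share was 10.5% against 21.8%.

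LIF and related cytokines signal through a shared receptor chain, Il6st (gp130), to Jak1 and STAT3. In this list of 11 genes 3 were higher and 5 lower. Osmr, the oncostatin M receptor chain, lay at 11.42, 11.53 and 11.57 in fibroblasts and at 7.64, 7.57 and 7.85 in iPS cells. It fell most, before Jak2 (-2.55 ± 0.18), Il6st (-2.25 ± 0.07), Jak1 (-1.41 ± 0.11) and Stat3 (-1.09 ± 0.07). The call of Stat3 was lost once arrays were rescaled. The LIF receptor Lifr was not called (0.76 ± 0.14, called higher once arrays were rescaled) and stood below its ES level (-1.30 ± 0.14). The higher members were the STAT-induced kinases Pim1 (2.42 ± 0.08) and Pim3 (1.69 ± 0.07) and the feedback inhibitor Socs2 (1.72 ± 0.08).

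The FGF list had 5 of 19 members higher and 6 lower, close to the shares over all genes, and its ligands changed in both directions. Fgf4, made by the inner cell mass, rose from 6.42, 6.67 and 6.54 to 10.17 ± 0.19 (SD, n = 3), and Fgf17 rose by 1.76 ± 0.10. Fgf7, a growth factor that mesenchyme sends to epithelium, fell from 12.13, 12.12 and 12.16 to 7.09, 6.64 and 6.92, a difference of -5.25 ± 0.22, and Fgf2 fell by 3.13 ± 0.21. The receptor Fgfr1 fell by 1.95 ± 0.08. The feedback inhibitor Spry2 (2.39 ± 0.09) and the target Etv5 (2.28 ± 0.07) were higher, and 6 members of the list were lower than in ES cells against a background of 2.45%.

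In the Wnt list 6 of 32 genes were higher and 14 lower. The non-canonical ligand Wnt5a (-3.38 ± 0.12), the receptor Fzd2 (-2.68 ± 0.09) and the secreted antagonist Sfrp2 (-2.39 ± 0.28) were lower. The receptor Fzd5 (2.38 ± 0.11) and Axin2, a negative feedback gene induced by beta-catenin (1.92 ± 0.12), were higher. The Hedgehog list had 0 of 9 higher and 6 lower: the repressor Gli3 (-2.61 ± 0.11), the co-receptors Boc (-2.55 ± 0.12), Gas1 (-2.35 ± 0.13) and Cdon (-1.52 ± 0.11), and Sufu and Smo. The direct targets Ptch1 (-0.0 ± 0.10) and Gli1 (0.62 ± 0.10) were not called. Of 13 Notch genes 3 were higher, the target genes Hes1 and Hey2 and the Notch-modifying enzyme Mfng, and 2 lower, the coactivator Maml2 (-3.29 ± 0.17) and the receptor Notch2 (-1.72 ± 0.09). The Notch shares were 23.1% higher and 15.4% lower, beside 21.8% and 29.6% over all genes.

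The YAP and TEAD list, targets and components of a pathway that responds to stretch and cell contact, had 2 of 17 higher and 9 lower. The receptor Axl (-3.04 ± 0.16) and the kinase Lats2 (-2.35 ± 0.10) were lower, and Tead4 (1.52 ± 0.13) and Ajuba (1.5 ± 0.09) higher. The targets Ccn2 and Ccn1 were not called. Ccn2 lay at 11.79 ± 0.19 (SD, n = 3) in fibroblasts, 11.90, 11.85 and 11.94 in iPS cells and 9.79, 10.15 and 9.58 in ES cells, so that the ES arrays alone were low.

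Most receptor tyrosine kinases and growth factors that were called were lower. Kit, the stem cell factor receptor, rose from 5.65, 5.80 and 5.51 to 10.03, 10.03 and 10.11, while its ligand Kitl fell from 8.73, 8.77 and 9.10 to 5.41, 5.67 and 5.88. Both pairs of groups were separate on all arrays. Of 23 receptor tyrosine kinases 4 were higher (Kit, Erbb3 with 2.44 ± 0.13, Epha2 with 2.25 ± 0.16 and Tyro3 with 1.39 ± 0.08) and 12 lower. The platelet-derived growth factor receptors Pdgfra (-4.40 ± 0.12) and Pdgfrb (-3.47 ± 0.12) and the collagen receptor Ddr2 (-2.69 ± 0.10) led the lower ones. Pdgfra lay at 10.78, 11.12 and 11.16 in fibroblasts and 6.39, 6.58 and 6.88 in iPS cells. Of 27 growth factor and IGF genes 2 were higher, the IGF-binding protein Igfbp2 (3.74 ± 0.07) and the heparin-binding factor Mdk (2.31 ± 0.10), and 19 were lower. Those included Csf1 (-4.09 ± 0.20), which supports macrophages, Vegfd (-3.94 ± 0.10), the EGF-family ligand Ereg (-3.90 ± 0.20) and Hgf (-3.88 ± 0.13). Igf2 was not called (0.36 ± 0.21).

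**Figure D2:**
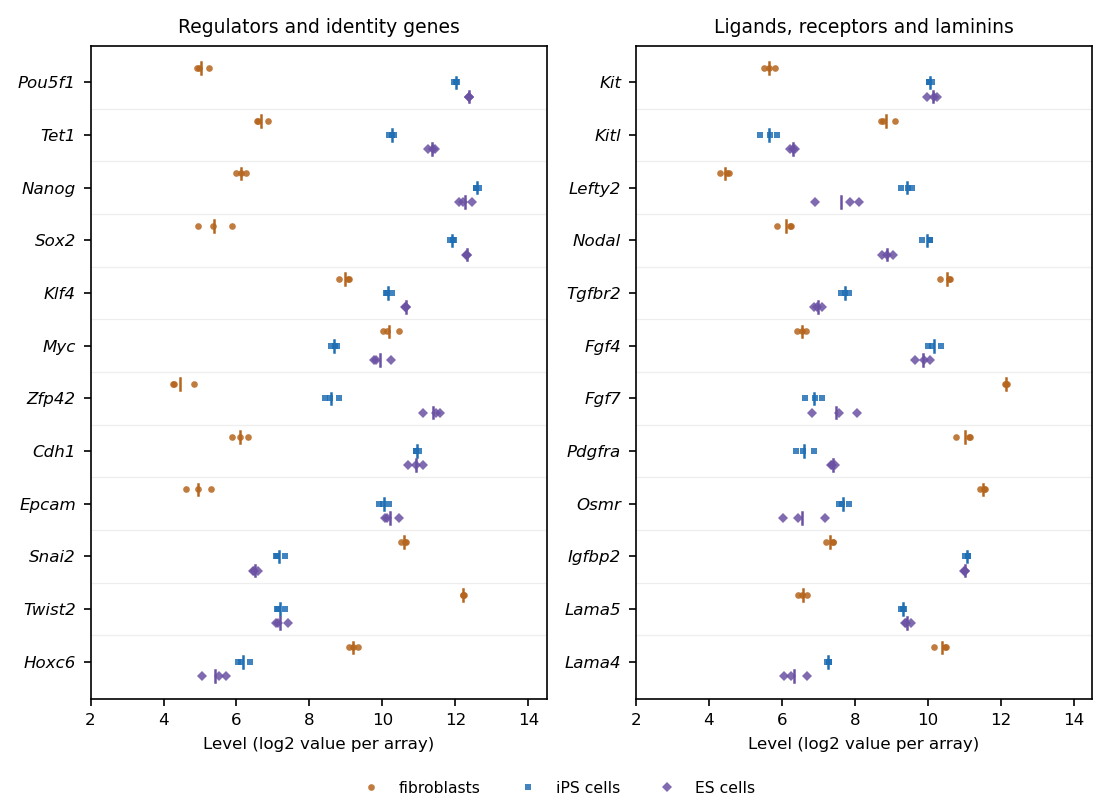
Level (log2) of regulators and identity genes (left) and of ligands, receptors and laminins (right) on each array of fibroblasts (circles), iPS cells (squares) and ES cells (diamonds), with a tick at the group mean of 3 arrays. Kit and Kitl, Fgf4 and Fgf7, and Lama5 and Lama4 cross over between fibroblasts and iPS cells, and Zfp42, Tet1 and Myc stand lower in iPS than in ES cells.

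Epithelial genes were higher in iPS cells. Of 32 adhesion and junction genes 23 rose and 1 fell, with a median of 1.55. Epcam, an epithelial adhesion molecule, went from 5.29, 4.94 and 4.61 to 10.17, 9.91 and 10.02, and E-cadherin (Cdh1) from 6.31, 6.11 and 5.88 to 10.99, 10.93 and 10.92. The protease inhibitors Spint2 (4.20 ± 0.10) and Spint1 (3.68 ± 0.13), which protect epithelial surfaces, and the claudin Cldn4 (3.60 ± 0.07) followed. Cldn4 was above its ES level by 1.43 ± 0.07. P-cadherin (Cdh3) was the only lower member at -1.02 ± 0.15, a value at the threshold that lost its call when arrays were rescaled or when array 2 of either group was left out. Without the dimmest 25% of genes, 13 of 17 remaining members were higher.

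Mesenchymal transcription factors were lower as a group: 35 of 46 fell, 1 rose (Foxd1, 1.53 ± 0.10) and the median was -2.17. Twist2 fell from 12.23, 12.21 and 12.20 to 7.13, 7.10 and 7.34. The repressors of E-cadherin Snai2 (-3.43 ± 0.08) and Snai1 (-3.33 ± 0.14) were lower, the limb and skin factor Tbx15 fell by 4.30 ± 0.20, and the nuclear factor Nfix fell by 3.72 ± 0.08. Hox genes, which keep the record of body position in fibroblasts, showed 0 of 31 higher and 22 lower, led by Hoxc6 (-3.02 ± 0.14), Hoxd10 (-2.88 ± 0.11), Hoxa10 (-2.38 ± 0.14) and Hoxc10 (-2.28 ± 0.12).

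Integrin and cadherin genes were lower more often than higher. Of 37 measured, 4 were higher (10.8%) and 22 lower (59.5%), against 21.8% and 29.6% over all genes. Their median difference was -1.59. The laminin receptor chain Itga6 rose by 2.28 ± 0.10 and the tetraspanin Cd9 by 1.46 ± 0.08, while N-cadherin (Cdh2) fell by 3.29 ± 0.15, Vcam1 fell by 3.69 ± 0.13 and the protocadherins Pcdh7 (-4.05 ± 0.21) and Pcdh18 (-3.51 ± 0.08) were lower. Itgb1, the chain that most integrins share, was not called (-0.21 ± 0.07). Basement membrane genes had 6 of 18 higher and 8 lower (5 lower once arrays were rescaled). Among the laminin alpha chains, Lama5 went from 6.70, 6.56 and 6.44 to 9.33, 9.26 and 9.35 and Lama1 rose by 2.47 ± 0.12, whereas Lama4 went from 10.18, 10.51 and 10.48 to 7.28, 7.25 and 7.30 and Lama2 fell by 1.02 ± 0.08, at the threshold and not called once arrays were rescaled or array 1 of either group was left out. Of the linker proteins, Nid2 rose by 2.10 ± 0.10 and Nid1 fell by 1.47 ± 0.09.

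Collagen genes and the enzymes that process collagen were lower more often than higher. Of 35 measured, 1 was higher (Col18a1, a basement membrane collagen, 1.22 ± 0.12) and 18 lower, with a median of -1.08. Col1a1 lay at 11.86, 12.02 and 11.99 in fibroblasts and at 12.22, 12.18 and 12.27 in iPS cells, and Col1a2 at 11.78 ± 0.11 and 11.98 ± 0.02 (SD, n = 3 each). The iPS arrays were above the fibroblast arrays for both chains of type I collagen, by less than 2-fold, and neither gene was called (0.26 ± 0.15 and 0.19 ± 0.12). The prolyl hydroxylase subunit P4ha3 fell from 10.41, 10.13 and 10.41 to 6.45, 6.24 and 6.29. P4ha2, of the same enzyme family, fell by 2.62 ± 0.09, the crosslinking oxidase Loxl3 fell by 3.11 ± 0.12 and the lysyl hydroxylase Plod1 fell by 2.40 ± 0.11.

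The same collagen chains set iPS cells apart from ES cells. Col1a1 was at 9.45, 10.26 and 9.69 in ES cells, below every iPS array, a difference of 2.42 ± 0.15 (iPS minus ES, adjusted p = 7e-08), and Col1a2 differed by 2.60 ± 0.12. In the collagen list 15 of 35 members were higher in iPS than in ES cells and 0 lower, against 4.44% and 2.45% over all genes. The count was 14 to 17 when 1 ES array was left out. ES array 2 stood above the other ES arrays in these genes, with a list mean of 7.73 against 7.51 and 7.54, and the iPS arrays lay at 8.59 to 8.66. Feeder fibroblasts were present in both cultures, the labels describe a plating step that removed feeders for ES cells without naming iPS cells, and the part of feeder RNA in the iPS values was not tested. Of the fibroblast markers, Thy1 stood at 8.47, 8.31 and 8.47 in iPS and 7.78, 8.40 and 7.81 in ES cells, S100a4 at 6.94, 7.0 and 7.38 and 6.5, 5.88 and 6.55, and Dcn at 7.32, 7.12 and 7.48 and 9.42, 9.48 and 9.26. Of all 14 fibroblast markers 3 (Col1a1, Col1a2 and Col3a1) were called higher in iPS than in ES cells, 1 (Dcn) was called lower and 10 were not called.

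Other matrix genes were lower. Of 39 proteoglycans, fibronectin and related genes 0 were higher and 30 lower, with a median of -2.08. Dcn (decorin, which binds collagen fibrils) fell from 12.69, 12.97 and 13.11 to 7.32, 7.12 and 7.48, Lum (lumican) fell by 4.97 ± 0.21, Abi3bp fell by 5.42 ± 0.11 and the microfibril gene Mfap5 fell by 3.82 ± 0.10. Fn1 (fibronectin) was not called, at 13.15, 13.12 and 13.13 and 12.19, 12.25 and 12.24, a difference of -0.91 ± 0.06. Prg4 (lubricin), in the same list, fell by 5.24 ± 0.29. In this list 14 members were higher in iPS than in ES cells and 1, Dcn, lower (-2.08 ± 0.12).

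Matrix proteases and their inhibitors fell in 33 of 42 cases and rose in 2. Mmp3 (stromelysin) went from 11.79, 12.41 and 12.33 to 6.01, 5.77 and 5.57, below its ES level of 9.74, 9.60 and 9.63. Mmp13 fell by 4.82 ± 0.15, Mmp10 fell by 4.05 ± 0.12 and the collagen-degrading cathepsin Ctsk fell by 3.83 ± 0.14. Mmp14, a membrane-bound collagenase, was not called (-0.83 ± 0.09). The higher pair were cell surface peptidases, Mme (neprilysin, 3.47 ± 0.16) and Dpp4 (2.42 ± 0.11).

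The contractile list had 26 of 48 members lower and 2 higher. S100a4, a calcium-binding protein of motile fibroblasts, fell from 11.79, 11.71 and 11.59 to 6.94, 7.0 and 7.38, the LIM protein Fhl3 fell by 2.37 ± 0.11 and the focal adhesion protein Zyx fell by 2.18 ± 0.11. The muscle intermediate filament Des rose from 5.71, 5.69 and 5.54 to 8.71, 8.87 and 8.73 and smooth muscle myosin Myh11 by 1.05 ± 0.10. Vim (vimentin) and Acta2 (smooth muscle actin) were not called. Acta2 lay at 13.13, 13.08 and 13.11 in fibroblasts, 12.38, 12.30 and 12.36 in iPS cells and 9.10, 10.22 and 9.26 in ES cells, so iPS cells were nearer to fibroblasts. In this list 21 of 48 members were higher in iPS than in ES cells and 0 lower (19 to 22 higher without 1 ES array).

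**Figure D3:**
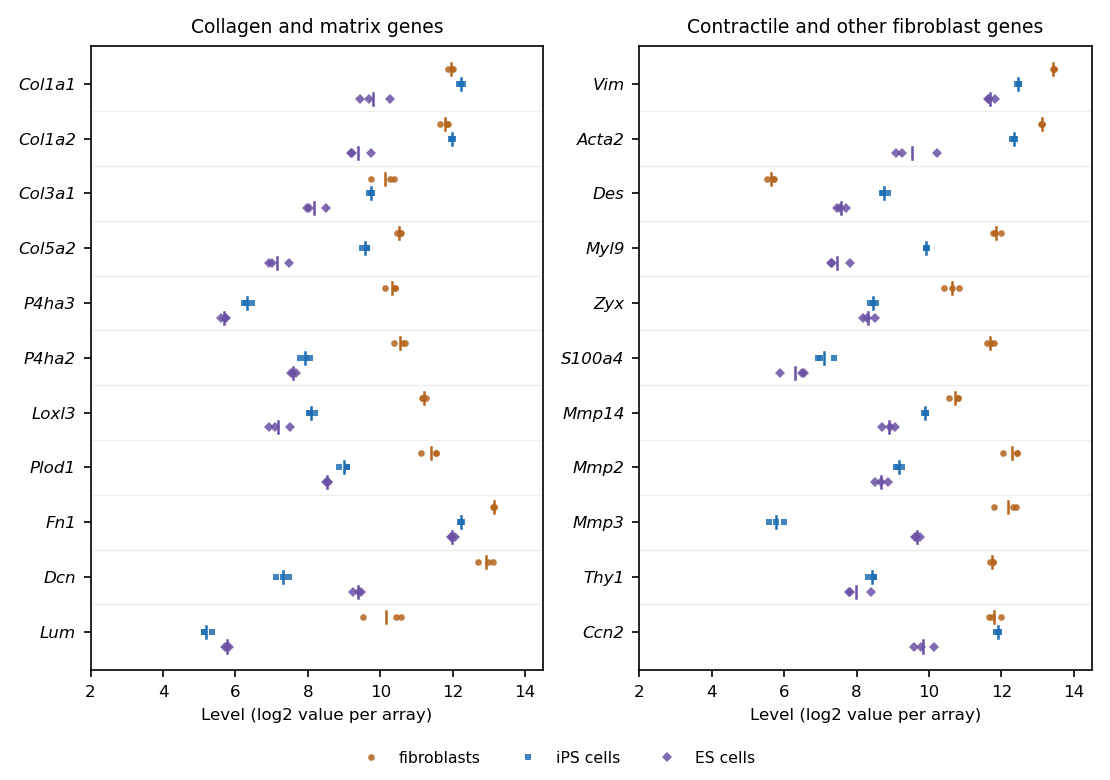
Level (log2) of collagen and matrix genes (left) and of contractile and other fibroblast genes (right) on each array of fibroblasts (circles), iPS cells (squares) and ES cells (diamonds), with a tick at the group mean of 3 arrays. Col1a1, Col1a2, Acta2 and Ccn2 lie close together in fibroblasts and iPS cells and lower in ES cells, while P4ha3, Loxl3, Dcn and Lum are low in iPS cells.

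Of the 15 most reduced genes, 9 were immune genes. Ppbp, a chemokine that attracts neutrophils, showed the largest fall, from 13.10, 12.74 and 12.68 to 5.22, 5.02 and 4.83 (-7.82 ± 0.13, adjusted p = 5.8e-14). Cxcl5 fell by 6.87 ± 0.10, Ccl11 fell by 5.86 ± 0.18 and Ccl3 fell by 5.65 ± 0.13. Of 21 chemokine and receptor genes 19 were lower and 0 higher. The pair not called was Cxcr4 (0.93 ± 0.09) and Ccl17 (-0.80 ± 0.10), and Cxcr4 passed the threshold as higher once arrays were centred.

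Interferon response genes were lower in 35 of 38 cases and higher in 0, with a median of -3.01. Ifit3, an RNA-binding antiviral protein, fell from 11.29, 11.69 and 11.68 to 4.73, 4.76 and 4.58, and Ifit1 from 11.17, 11.34 and 11.40 to 5.24, 5.07 and 5.13. Ifi203, of the DNA-sensing family, fell by 5.87 ± 0.23, and Usp18, which removes the interferon-induced modifier Isg15, fell by 5.28 ± 0.34. The genes not called were Trim25 (0.23), Oas1a (-0.27) and Irf5 (-0.46). MHC class I and complement genes fell in 18 of 20 cases, B2m (the light chain of MHC class I) from 12.46, 12.46 and 12.66 to 10.33, 10.32 and 10.38. Of 52 interleukin and TNF family genes and receptors 37 were lower and 2 higher (Tnfrsf19 and Il17rd). Lcn2, an iron-scavenging acute phase protein, fell by 6.51 ± 0.12, Saa3 fell by 4.70 ± 0.23, the receptor chain Il1rl2 fell by 4.69 ± 0.13 and Il6 fell by 4.61 ± 0.18.

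Day-1 cells, which are also passage 3 fibroblasts, give a second reference for these genes. They had a median interferon gene level of 6.79, against 9.70 in fibroblasts and 6.32 in iPS cells. Against day-1 cells, where 26.6% of all genes were lower and 17.6% higher in iPS cells, 10 of the 38 interferon genes were lower and 2 higher. Ifit3 lay at 5.34, 5.11 and 5.67 in day-1 cells and Ifit1 at 6.12, 6.0 and 5.79, near the iPS arrays. By the same rule 7 of 20 MHC class I and complement genes were lower and 1 higher, 13 of 21 chemokine genes were lower and 0 higher, and 29 of 52 interleukin and TNF family genes were lower and 4 higher. Ppbp stayed high in day-1 cells (11.35, 11.62 and 11.54), as did Cxcl5 (9.87, 9.96 and 9.92), while Lcn2 did not (5.25, 5.51 and 5.38). Both comparisons share the iPS arrays. Day-1 cells also differ from the fibroblasts in medium, doxycycline and induced factors, and what set the fibroblast levels was not tested.

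The start sites of these genes were searched for the motifs of their known regulators. The core of the interferon-stimulated response element, GAAA followed by any pair of bases and a further GAAA, was found on either strand within 250 bases upstream of 11 of 29 interferon genes with a promoter entry (37.9%), of 2.69% of the tested genes and of 3.04% of all windows. A form of the NF-kB site, GGG followed by any pair of bases and TTTCC, was found in 5 of 16 chemokine genes (31.2%), in 1.49% of tested genes and in 1.40% of all windows. Among all called lower genes the shares were 3.26% and 1.81%. The stretches of genes that fell are shown with these motifs in capitals, the first 3 for the interferon motif and the last 3 for NF-kB.
Ifit1 chr19:34640759-34640828 (plus strand): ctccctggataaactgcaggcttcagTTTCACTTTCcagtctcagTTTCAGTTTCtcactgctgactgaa
Ifit3 chr19:34583349-34583428 (plus strand): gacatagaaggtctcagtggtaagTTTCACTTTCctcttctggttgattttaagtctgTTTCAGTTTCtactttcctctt
Gbp3 chr3:142559974-142560043 (plus strand): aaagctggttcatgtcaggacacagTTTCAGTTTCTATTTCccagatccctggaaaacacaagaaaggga
Cxcl1 chr5:90891135-90891204 (plus strand): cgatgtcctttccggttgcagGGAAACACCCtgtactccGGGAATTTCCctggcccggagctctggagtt
Cxcl2 chr5:90903779-90903848 (plus strand): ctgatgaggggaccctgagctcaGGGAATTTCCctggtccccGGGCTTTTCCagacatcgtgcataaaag
Cxcl3 chr5:90785991-90786060 (plus strand): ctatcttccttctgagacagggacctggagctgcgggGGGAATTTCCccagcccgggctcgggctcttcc
Ifit1 and Ifit3 each hold 2 copies, starting 104 and 85 bases and 156 and 122 bases before the start site. In Gbp3, a guanylate-binding protein that fell by 3.81 ± 0.19, 2 matches overlap and form 1 capital run. Cxcl1 and Cxcl2 hold 2 NF-kB matches each and Cxcl3 holds 1, and the same letters GGGAATTTCC occur in all 3. Cxcl1 fell by 3.63 ± 0.11, Cxcl2 fell by 3.83 ± 0.16 and Cxcl3 fell by 4.45 ± 0.13.

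**Figure D4:**
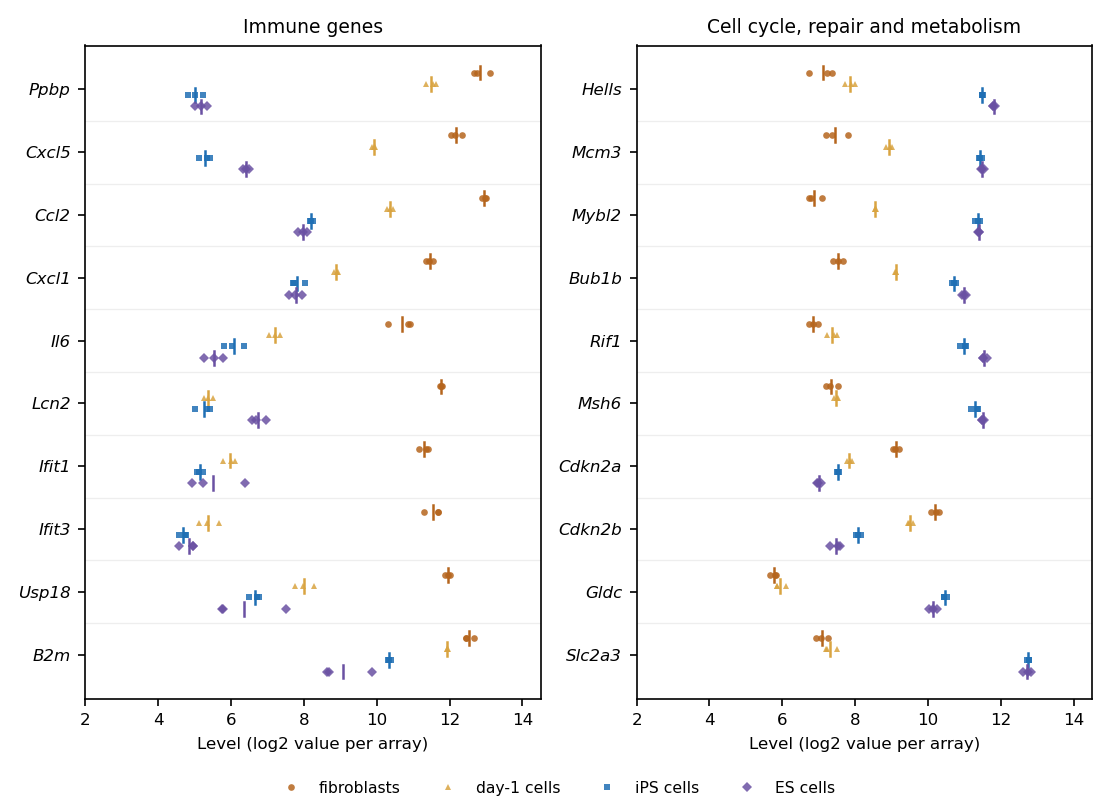
Level (log2) of immune genes (left) and of cell cycle, repair and metabolic genes (right) on each array of fibroblasts (circles), day-1 cells (triangles), iPS cells (squares) and ES cells (diamonds), with a tick at the group mean of 3 arrays. Ifit1, Ifit3 and Lcn2 are high in fibroblasts alone, Ppbp and Cxcl5 are high in fibroblasts and day-1 cells, and Gldc and Slc2a3 are high in both pluripotent lines.

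Metabolic genes changed in both directions, and members of 1 pathway differed in size. In the serine, glycine and one-carbon list 15 of 28 genes were higher and 2 lower, with a median of 1.30. Gldc, the decarboxylase of the glycine cleavage system, rose from 5.81, 5.82 and 5.66 to 10.43, 10.51 and 10.45, and Amt, the aminomethyltransferase of the same system, by 4.59 ± 0.11. Ppat, the first enzyme of purine synthesis, rose by 3.33 ± 0.07 and the cytosolic serine hydroxymethyltransferase Shmt1 by 3.17 ± 0.09. The mitochondrial enzymes Shmt2 and Mthfd2 were not called (0.34 and 0.67), and Mthfd2l (-2.07 ± 0.11) and Aldh1l2 (-1.32 ± 0.10) were lower.

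Glycolysis genes had 8 of 24 members higher and 6 lower (3 lower once arrays were rescaled). These shares were 33.3% and 25%, beside 21.8% and 29.6% over all genes. The glucose transporter Slc2a3 (Glut3) went from 6.93, 7.07 and 7.26 to 12.76, 12.71 and 12.77, whereas Slc2a1 (Glut1) was not called (-0.29 ± 0.06). Hexokinase 2 (Hk2) rose by 2.63 ± 0.07 and hexokinase 1 (Hk1) fell by 1.12 ± 0.08, a call lost once arrays were rescaled. Pdha1 and Pdhb, subunits of pyruvate dehydrogenase, rose by 1.60 ± 0.07 and 1.45 ± 0.10, and the kinase Pdk2, which switches that enzyme off, fell by 1.93 ± 0.11. Of 38 respiratory chain and mitochondrial translation genes 19 were higher and 2 lower, led by the mitochondrial DNA packaging factor Tfam (2.34 ± 0.09), Cox7a1 (2.28 ± 0.11) and the elongation factor Tufm (2.04 ± 0.16). The lower ones were Ndufa4l2 (-1.43 ± 0.24) and Atp5g1 (-1.32 ± 0.07).

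Lipid genes were lower more often than higher, 20 against 5 of 41. The secreted phospholipase Pla2g1b rose by 5.44 ± 0.12 and the fatty acid carrier Fabp3 by 2.93 ± 0.07, while the cytosolic phospholipase Pla2g4a fell by 3.51 ± 0.08 and Fabp5 fell by 2.14 ± 0.12. The cholesterol list had 3 of 14 higher and 6 lower, and 5 higher once arrays were rescaled. Its members Hmgcs1 (1.13 ± 0.10) and Insig1 (1.39 ± 0.10) rose and the exporter Abca1 fell (-2.60 ± 0.10). In the redox, detoxification and metal list 25 of 45 were lower and 5 higher. The copper carrier ceruloplasmin (Cp, -4.86 ± 0.17), the metal reductase Steap4 (-4.80 ± 0.22) and the extracellular superoxide dismutase Sod3 (-4.70 ± 0.15) fell, and the transferrin receptor Tfrc rose by 3.06 ± 0.11. The metallothioneins Mt1 and Mt2 were not called (0.15 and -0.36). Among 30 transporters 11 were higher (36.7%) and 6 lower (20%), beside 21.8% and 29.6% over all genes. The arginine transporter Slc7a3 was at 4.29 ± 0.10 and its relative Slc7a2 at -3.45 ± 0.17.

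Genes of the secretory and degradative routes were lower more often than higher. Lysosome and autophagy genes were lower in 28 of 55 cases and higher in 4 (Laptm5, Manba, Ctsc and Tfeb). The cathepsins Ctsk (-3.83 ± 0.14) and Ctsh (-3.40 ± 0.11), the sphingomyelinase Smpd1 (-3.18 ± 0.09) and the acid lipase Lipa (-3.01 ± 0.14) led the lower ones. Secretory pathway and ER folding genes were lower in 21 of 44 cases and higher in 1 (Rab27a, 1.70 ± 0.12). Creb3l1, a transcription factor that drives collagen secretion, fell from 10.37, 10.51 and 10.62 to 7.33, 7.09 and 7.12, and its relative Creb3l2 fell by 3.07 ± 0.13. The general folding factors Canx and P4hb were not called (-0.58 and -0.24). Cytosolic chaperones went the other way, 15 of 38 higher and 5 lower (3 lower once arrays were rescaled), with Hsp90aa1 at 2.64 ± 0.30 and the chaperonin subunit Cct8 at 1.75 ± 0.06.

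Ribosome biogenesis and nucleolar genes were higher in 49 of 61 cases and lower in 0, with a median of 1.57. The differences were even, the leading members being Dkc1, the pseudouridine synthase also found in telomerase (2.57 ± 0.13), Nop58 (2.55 ± 0.09), Tsr1 (2.48 ± 0.10) and Rrs1 (2.47 ± 0.10). Against day-1 cells 28 of these 61 were higher and 0 lower, beside 17.6% and 26.6% over all genes. Among 38 splicing and RNA-binding regulators 12 were higher (31.6%) and 7 lower (18.4%), beside 21.8% and 29.6% over all genes. The let-7 antagonist Lin28a and the stem cell ubiquitin ligase Trim71 rose by 3.52 ± 0.10 and 4.14 ± 0.23, and the epithelial splicing factor Esrp1 by 2.18 ± 0.11. All 3 muscleblind genes, whose proteins favour splicing forms of differentiated cells, fell: Mbnl3 fell by 2.38 ± 0.10, Mbnl2 fell by 2.26 ± 0.06 and Mbnl1 fell by 2.08 ± 0.09.

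Most cell cycle genes were higher. Of 62 DNA replication genes 56 rose and 0 fell (median 2.0), and of 74 mitotic genes 66 rose and 0 fell (median 2.13). Mcm3, a subunit of the replicative helicase, went from 7.80, 7.20 and 7.37 to 11.47, 11.43 and 11.40. Hells, a chromatin remodeller needed for DNA methylation and counted in both the replication and the methylation list, went from 7.36, 6.73 and 7.23 to 11.47, 11.51 and 11.49. Mybl2, which drives mitotic genes, rose by 4.50 ± 0.09 and Ticrr, an origin-firing factor, by 3.93 ± 0.13. Day-1 cells stood between: Mcm3 lay at 8.95, 9.0 and 8.85 and Mybl2 at 8.53, 8.58 and 8.53 there, above all fibroblast arrays. Against day-1 cells 37 of the 62 replication genes and 29 of the 74 mitotic genes were higher in iPS cells and 0 lower. Over all genes 17.6% were higher and 26.6% lower in that comparison.

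Of 27 cyclin, CDK inhibitor and E2F genes 9 were higher (33.3%) and 8 lower (29.6%), against 21.8% and 29.6% over all genes. Against day-1 cells 6 were higher and 6 lower in iPS cells, beside 17.6% and 26.6% over all genes. The checkpoint kinases Chek1 (3.45 ± 0.08) and Wee1 (3.03 ± 0.09) and the F-box gene Fbxo5 (3.27 ± 0.14) were higher. The inhibitors Cdkn2b (-2.11 ± 0.09) and Cdkn2c (-1.90 ± 0.14) and the pocket protein Rbl2 (-1.89 ± 0.11) were lower. Cdkn2a, which encodes p16 and p19Arf and accumulates with passages, lay at 9.10, 9.21 and 9.03 in fibroblasts and 7.54, 7.51 and 7.56 in iPS cells. Ccnd1 and Cdk6 were not called (-0.99 and 0.16). Ccnd1 passed the threshold as lower (-1.01 to -1.05) without iPS array 3 or without fibroblast array 2 or 3.

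TTTCCCGC, a core of the E2F site, was found on either strand within 250 bases upstream of 5 of 52 replication genes (9.62%), against 1.70% of tested genes and 0.929% of all windows. Over all genes it was in 2.73% of those called higher and 1.22% of those called lower. CCGGAAG, the core of Ets sites, was in 32.7% of replication genes, 25.9% of ribosome biogenesis genes and 12.7% of tested genes, in 15.8% of genes called higher and 8.96% of those called lower. AP-1 sites (TGANTCA) had the opposite shares, 2.91% and 5.21%. The E2F match of Hells and that of Cdc6, an origin licensing factor that rose by 3.30 ± 0.09, are shown in capitals.
Hells chr19:38930890-38930959 (plus strand): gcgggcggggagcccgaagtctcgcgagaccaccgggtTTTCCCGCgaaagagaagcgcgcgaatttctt
Cdc6 chr11:98907981-98908050 (plus strand): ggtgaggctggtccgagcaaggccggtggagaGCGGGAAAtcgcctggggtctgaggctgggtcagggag
The match starts 62 bases before the start site in Hells and 138 bases before it in Cdc6, where it runs on the other strand.

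DNA repair and telomere genes were higher in 41 of 52 cases (median 1.65) and lower in 1, the alkyladenine glycosylase Mpg (-1.05 ± 0.10, not called once arrays were rescaled). Rif1, a telomere and replication timing protein, went from 6.83, 6.73 and 6.99 to 10.88, 11.04 and 11.02. Msh6, of mismatch repair, went from 7.53, 7.20 and 7.30 to 11.17, 11.33 and 11.36. The shelterin protein Terf1 rose by 3.59 ± 0.08 and Parp1 by 3.37 ± 0.06. The list of p53, senescence and apoptosis genes had 5 of 30 higher and 15 lower. The initiator caspase Casp8 fell from 11.29, 11.27 and 11.42 to 7.23, 7.08 and 7.09, and Casp12 (-4.04 ± 0.12), Casp4 (-3.48 ± 0.12) and the death receptor Fas (-3.22 ± 0.12) were lower too. The higher ones included the p53 target Pmaip1 (Noxa, 1.72 ± 0.10) and Mcl1 (1.54 ± 0.07). Against day-1 cells 9 of the 30 were lower and 5 higher, near the shares over all genes (26.6% and 17.6%).

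Genes of DNA methylation and demethylation, a list of enzymes, cofactors and methyl-binding proteins, were mostly higher, 15 of 25, with 3 lower. Dnmt3l, the cofactor of new methylation, rose by 4.71 ± 0.10 and Dnmt3b by 3.50 ± 0.17. Uhrf1, which guides maintenance methylation, rose by 3.71 ± 0.12. Tet3, a relative of Tet1, was among the lower ones (-1.45 ± 0.13) with Apobec1 (-1.38 ± 0.13) and the methyl-binding protein Mbd2 (-1.19 ± 0.09, not called once arrays were rescaled). Of 59 Polycomb and histone modifying genes 25 were higher and 7 lower (4 lower once arrays were rescaled). Mtf2 (3.05 ± 0.09) and Jarid2 (2.36 ± 0.08), accessory subunits of Polycomb complex 2, the H3K9 methyltransferase Suv39h2 (2.73 ± 0.07) and the Polycomb reader Cbx7 (2.64 ± 0.13) rose. In the Phc family Phc1 rose by 2.62 ± 0.07 while Phc3 (-2.22 ± 0.11) and Phc2 (-1.21 ± 0.12, not called once arrays were rescaled) fell.

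Chromatin remodelling and histone genes were higher more often than lower. Of 46 measured, 20 were higher (43.5%) and 9 lower (19.6%), against 21.8% and 29.6% over all genes. Lamin B1 (Lmnb1) went from 7.48, 6.93 and 7.29 to 11.32, 11.45 and 11.39 and its receptor Lbr rose by 3.08 ± 0.07, while lamin A (Lmna) was not called (-0.73 ± 0.07). The remodelling ATPase Smarca2 (Brm) fell by 3.37 ± 0.12 and the BAF subunit Smarcc2 fell by 1.75 ± 0.10, while its paralogue Smarcc1 was not called (0.90 ± 0.09) until arrays were rescaled, and then as higher. The linker histones H1f1 and H1f5 rose by 3.56 ± 0.10 and 3.48 ± 0.08, and H1f2 fell by 1.38 ± 0.09. H2bc4, a core histone gene, fell by 3.78 ± 0.12, and Hmga2, a chromatin protein of growing mesenchyme, fell by 2.27 ± 0.15, still above its ES level (1.04 ± 0.15). That ES difference was 0.94 under both rescalings, less than 2-fold.

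Germline and early embryo genes were higher in 27 of 37 cases and lower in 0 (median 1.93). Most were dim, and without the dimmest 25% of genes 6 members remained, of which 5 were higher. Tdrd12, of the pathway of small RNAs that silence transposons, went from 4.72, 4.19 and 4.41 to 10.74, 10.91 and 10.82. It stood above ES cells (9.31, 9.58 and 9.50), as did the oocyte genes Ooep (1.01 ± 0.11), Nlrp4f (3.58 ± 0.10) and Obox6 (3.59 ± 0.18), each iPS minus ES. Ooep was at 0.92 with centred arrays, less than 2-fold. In the whole list 7 of 37 members were above and 7 below the ES level, so there was no common direction. Over all genes 4.44% were higher and 2.45% lower than in ES cells. Usp17ld, a deubiquitinase gene with near-identical copies that a probe set may not separate, rose from 5.54, 5.95 and 6.01 to 11.56, 11.68 and 11.83 and stood above its ES values of 6.79, 7.61 and 7.06. Zfp980 and Zfp640, zinc finger genes of a large family with close copies, rose by 6.5 ± 0.20 and 5.88 ± 0.10. Both stood below ES cells (iPS minus ES -1.02 ± 0.20 and -1.61 ± 0.10). For Zfp980 this was -0.98 after quantile normalization, less than 2-fold.

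Imprinted genes had 10 of 27 members higher (37%) and 5 lower (18.5%), beside 21.8% and 29.6% over all genes. Phlda2, a maternally expressed brake on placental growth, rose by 2.87 ± 0.10, below its ES level (-1.09 ± 0.10), and Mest, Slc38a4 and Ddc rose by 1.95 ± 0.15, 2.65 ± 0.11 and 2.31 ± 0.11. Airn, the non-coding RNA that silences its neighbours on the paternal copy, fell from 9.16, 9.31 and 9.66 to 6.21, 6.19 and 6.26, and Sgce (-3.02 ± 0.10) and Ndn (-2.40 ± 0.11) were lower. Igf2, Meg3 and Peg3 were not called (0.36, -0.82 and 0.0). Of 6 sex chromosome genes 2 were higher, Xist (2.16 ± 0.19) and Ddx3x (1.59 ± 0.06). The Y-linked Kdm5d and Eif2s3y were not called (-0.39 and -0.16). Differences from ES cells (iPS minus ES) were 0.13 for Xist, -0.32 for Ddx3x, 0.54 for Kdm5d and -1.94 for Eif2s3y. Of the 6 genes 0 were called higher and 1 lower than in ES cells.

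Immediate early genes, which answer to serum and handling within minutes, went both ways. Of 20 genes 6 were higher, such as Arc (2.65 ± 0.10), Ier2 (2.13 ± 0.09) and Fos (1.91 ± 0.19), and 5 lower, led by Fosl1 (-3.62 ± 0.13) and Nr4a2 (-2.85 ± 0.11). The shares of 30% higher and 25% lower lay near the 21.8% and 29.6% over all genes. Egr1 was not called (0.12 ± 0.07). The plot of shares by gene list places each list against the background shares of all genes.

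**Figure D5:**
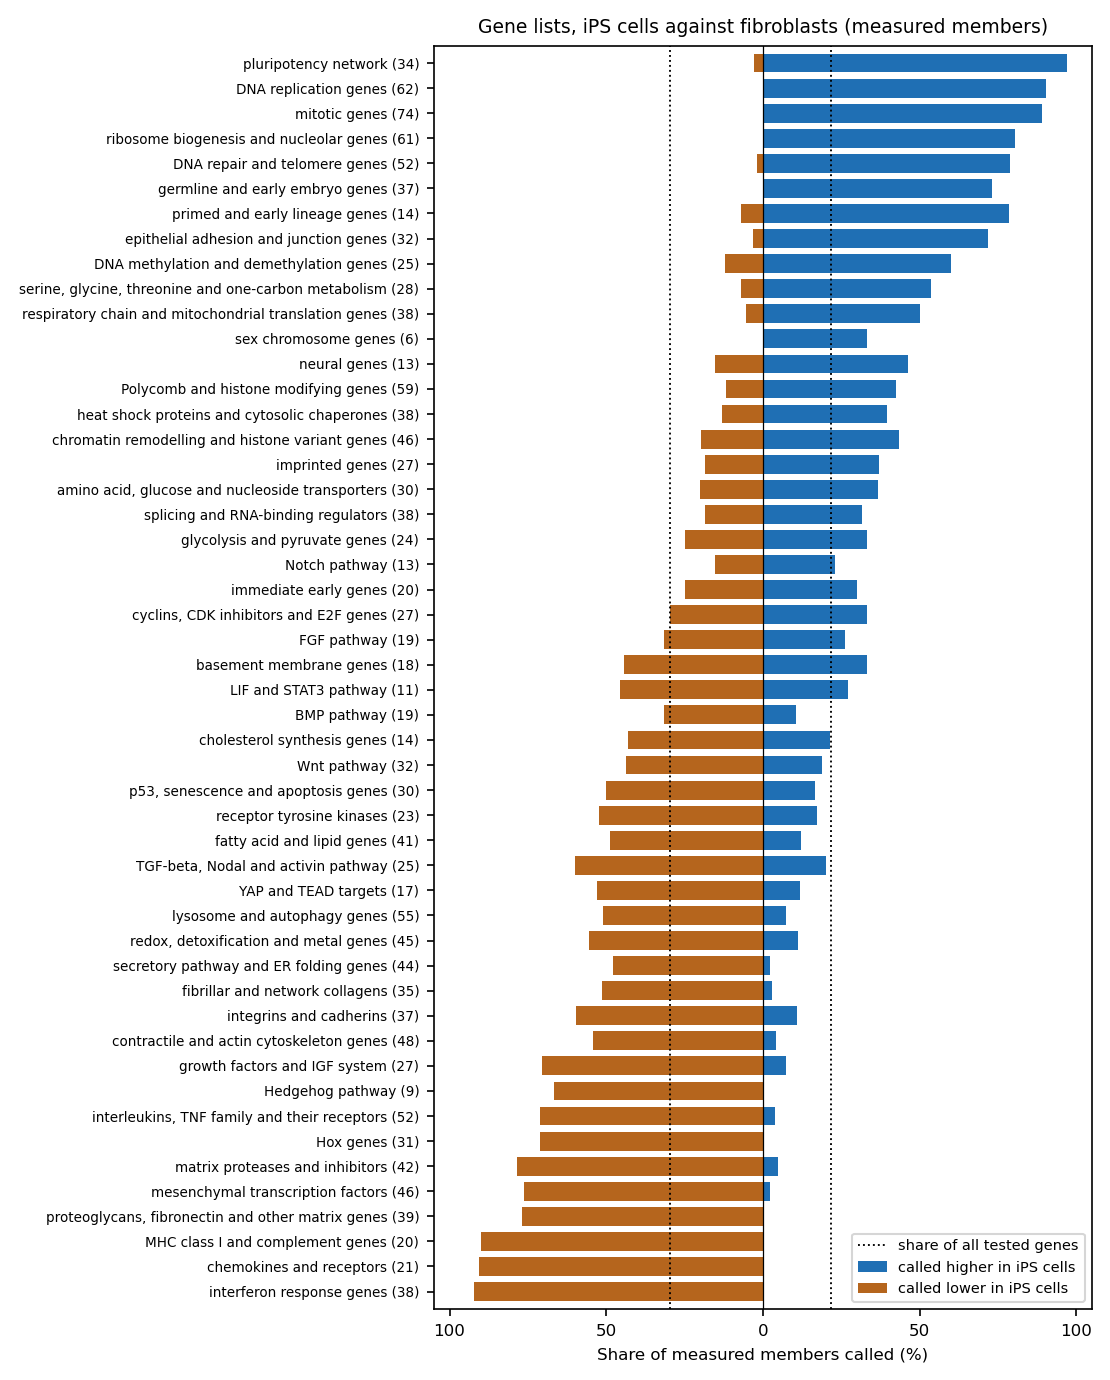
Share of the measured members of each gene list shown that were called higher (blue, to the right) or lower (brown, to the left) in iPS cells than in fibroblasts, in percent, with the number of measured members in brackets and lists ordered by the difference of the shares. Dotted lines mark the shares over all genes, 21.8% higher and 29.6% lower; pluripotency, replication and mitotic lists lie at the top, interferon and chemokine lists at the bottom.

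Some bright genes differed by less than 2-fold. The 10 genes with the highest levels among those whose 95% interval lay within 2-fold were Mt2, Rps20, Rhoa, Gnb1, Fth1, Rpl4, Asns, Tpt1, Hspa8 and Tuba1a, a mixture of ribosomal, cytoskeletal and stress genes, of which Asns passed the threshold as higher under both rescalings and Hspa8 after quantile normalization. Rps20, a ribosomal protein, lay at 12.91, 13.08 and 13.01 in fibroblasts and 12.43, 12.39 and 12.41 in iPS cells, so that the groups did not overlap and yet differed by less than 2-fold (-0.59 ± 0.06). Rhoa, the GTPase upstream of stress fibres, lay at 12.91, 13.02 and 12.99 and 12.38, 12.35 and 12.37 (-0.60 ± 0.06). At the lower end, the 15 most reduced genes also included Gpm6b, a membrane glycoprotein, which fell by 5.42 ± 0.14.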

How the data were processed

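Total RNA was taken up in Trizol and biotin-labelled for Affymetrix whole-transcript arrays (WT Terminal Labeling Kit), per the labels' protocols. The authors deposited 1 value per probe set and array on a log2 scale, as taken from their range of 2.43 to 13.64. Summarisation, normalization and any filter are not given in the sources used here. Of 10360 probe sets, 9542 had 1 gene symbol in the platform annotation, 344 several and 474 none, and the last 2 kinds were left out. For 3 genes the probe set with the highest mean was used. Of the gene identifiers, 9533 matched the RefSeq gene table. The number of arrays limits the precision.

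limma 3.58.1 (lmFit and eBayes, R 4.3.3) was run over all 12 arrays with 1 mean per group, and every adjusted p is limma's, by Benjamini-Hochberg over 9539 genes. Called genes had an adjusted p under 0.05 and a log2 difference of 1 or more. Errors after ± are standard errors for differences. The steps were tested on simulated data before use. Alternatives were quantile normalization, arrays centred on a common median, leaving out the dimmest 25% of genes, averaged probe sets, the iPS and fibroblast arrays alone, array weights, a trended robust prior, the replicate number as a block, each array left out, no fold minimum and limma's treat. Leaving out each ES array was added after seeing the data.

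Gene lists (51, with 1612 of 2162 genes measured), markers, motifs and the comparison itself were chosen with earlier results of these data known, so no list was tested and counts are set beside those over all genes; 1 list is not reported here. Named genes followed a rule: the 15 highest and 15 lowest called genes without array overlap and without unnamed gene models; per list up to 4 called members in each direction by size, exceptions of up to 5, and up to 2 uncalled members with the highest mean; the 10 highest genes within 2-fold; and Pou5f1, Tet1, Sox2, Klf4, Myc and Nanog. Others, such as Kitl, Cdkn2a, Lmna, Smarcc1 and the promoter examples, were chosen after their values were seen. Promoter windows are RefSeq's for GRCm38.p6. Plots were drawn in matplotlib 3.10.9 and tables made in pandas 2.3.3 (Python 3.11.15).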

Additional observations from a re-analysis of the deposited data

How the results depend on the processing

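With no fold minimum, 8985 genes passed (4004 higher, 4981 lower), which shows how far the count of 4897 rests on the 2-fold limit. It stayed within 1.5 times under all other settings, as did both directions, and limma's treat, which tests against the 2-fold limit itself, called 3832 (1591 higher, 2241 lower). Leaving out 1 array gave 4853 to 4917 calls. Replicate numbers did not pair the arrays (correlations of same-numbered deviations 0.009 to 0.047), and a replicate block gave 4897, the same count. Of 488 genes chosen by the rule or added to it, 358 were called. Under the 14 settings tried for single genes, 16 lost the call at least once, 25 gained one and 0 reversed, and the text names those it describes; in addition Hey2, Il17rd and Mfng lost it without 1 array. Of 102 list counts, 31 moved by over 1.5 times in at least 1 setting, 14 with centred and 9 with quantile normalized arrays. Leaving out dim genes removes members: 18 of 20 interferon genes and 12 of 12 chemokine genes were then lower. No list median changed sign with scaling (0 of 51). Against ES cells the higher count was 330 to 487 and the lower count 234 to 312 over scaling and omission of each ES array. Low values, near an unknown background, limit the size of differences.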
